A study of Drosophila virilis and Drosophila willistoni and Drosophila miranda with 119 samples.

Results

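The genes described here encode the subunits of the proteasome in Drosophila embryos. Of 17674 genes in the wider of the deposited ortholog tables, those chosen were every symbol beginning with Prosalpha, Prosbeta, or Rpn or Rpt and a digit. The rule gave 47 genes. Of these, 14 encode the core particle as it is built in most tissues (7 alpha ring and 7 beta ring subunits), 18 encode the cap (6 Rpt and 12 Rpn subunits), and 15 are further copies whose symbols carry a T or R after the subunit number.

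The proteasome degrades proteins that carry a chain of ubiquitin. Its core is a barrel of stacked rings: the outer alpha rings form a gate, and the inner beta rings hold the proteolytic sites, on Prosbeta1, Prosbeta2 and Prosbeta5. The cap sits on the barrel's end; its Rpt ring of ATPases unfolds substrates and opens the gate, while Rpn subunits bind ubiquitin, remove it and form the lid. In the early embryo, maternal mRNAs are cleared and maternal proteins are degraded as the zygotic genome takes over, and several T and R copies are known in D. melanogaster from the male germ line.

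The study sequenced RNA of 119 embryos, each on its own, from 14 species: 55 at stage 5, the cellularizing blastoderm, and 64 at stage 2, before zygotic transcription, with 3 to 7 embryos in each group. The obscura group (D. pseudoobscura, D. persimilis and D. miranda), D. simulans, D. sechellia, D. mauritiana, D. yakuba, D. santomea and D. erecta of the melanogaster subgroup, and D. ananassae, D. willistoni, D. mojavensis and D. virilis had both stages, so 13 species entered the stage comparison; D. melanogaster had stage 2 only, with 6 embryos. The labels give parental strains for D. pseudoobscura (mothers Flagstaff 14, fathers PP1134) and D. miranda (mothers MSH22, fathers SP138) alone. Embryos of these 2 species are marked as re-analysed, are labelled total RNA where the others are labelled polyA RNA, and at stage 5 carry the name latest5 and a sex; 1 of the 6 stage 2 embryos of D. pseudoobscura is noted as possibly unfertilized. Raw data are labelled as mixed with those of D. melanogaster for D. virilis at stage 2 and, at both stages, for D. mojavensis, D. persimilis, D. santomea, D. sechellia and D. simulans. The values are the authors' FPKM, a measure of level per transcript length, and each gene has 1 value for a species at a stage, already pooled over its embryos. Species are therefore the replicates, the spread between embryos enters no test, and the sequencing depth is unknown.

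Stage labels fitted their markers: 8 of 8 zygotic genes such as ftz and Kr were called higher at stage 5, and 6 of 6 maternal genes such as bcd and osk were called lower. The deposited stage 5 columns sum to between 1.99 and 3.62 times the stage 2 columns, and the median change of all 7225 tested genes was 0.39 on the log2(FPKM + 1) scale, so the direction of a single subunit depends on the scaling, and calls are given both as deposited and after centring each species on the median of all genes. A gene was called changed when limma's test over species gave a Benjamini-Hochberg adjusted p under 0.05 and the mean change was at least 1 on the log2(FPKM + 1) scale. Since whole embryos were used, a change in the share of an mRNA and a change in the amount of RNA in an embryo cannot be told apart.

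A few values go against the rest and are named first. In D. miranda, Prosalpha3 had 2.87 FPKM at stage 5 and was listed at 0 at stage 2, and Prosbeta3 had 0.183 FPKM at stage 5 and was listed at 0 at stage 2, whereas the medians of the other species for Prosalpha3 were 354 FPKM at stage 5 and 233 FPKM at stage 2. Both carry a D. miranda identifier of a kind marked D2, while the other 23 broad subunits with a D. miranda value carry one marked D1. Over the whole table, of genes with a median of at least 50 FPKM at stage 2 in the other species, 14 of 32 with a D2 identifier (43.8%) were below 1 FPKM in D. miranda at stage 2, against 16 of 1255 with a D1 identifier (1.27%). A further case is Prosalpha1, whose only value was 0.0444 FPKM in D. melanogaster at stage 2. A gene outside the 47, CG30382, listed in the current gene table as Prosalpha1R and chosen after its values were seen, was listed at 0 in D. melanogaster at stage 2 but had a median of 537 FPKM at stage 5 and 254 FPKM at stage 2 in 11 other species. It was higher at stage 5 in 11 of 11 species, by 1.13 ± 0.40 (SD) with a limma adjusted p of 2.13e-06; centred on all genes it was 0.76 and was not called. How alike Prosalpha1 and CG30382 are in sequence, and how reads were assigned between them, was not tested. The values of this pair are uncertain.

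Core and cap mRNAs moved apart between the stages. In every one of the 13 species the median core subunit changed more than the median cap subunit, with a mean gap of 1.42 ± 0.59 (SD over 13 species, log2(FPKM + 1) scale), a difference that does not depend on a common factor per column and was 1.01 even after quantile normalization. The gap was widest in D. miranda, at 2.69, and narrowest in D. santomea, at 0.64. It rests on 10 core and 14 cap subunits in D. miranda, Prosalpha3 and Prosbeta3 among them, and on 13 and 15 in D. santomea. The next widest gaps were in D. persimilis (2.10) and D. pseudoobscura (1.93), also of the obscura group. D. miranda and D. pseudoobscura are labelled total RNA and D. persimilis polyA RNA, and the part of library source was not tested. The core median changed by 1.33 ± 0.45 and the cap median by -0.08 ± 0.34 (SD over species). As deposited, the median core subunit was thus higher and the median cap subunit slightly lower at stage 5. A second measure, the median over subunits of their mean changes, was 1.31 for the core and -0.07 for the cap as deposited. With each species centred on all genes, that measure was 0.94 for the core and -0.44 for the cap. It was below 0 for both with quantile normalization (core -0.20, cap -1.14) and at equal column totals (core -0.02, cap -1.39).

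**Figure D1:**
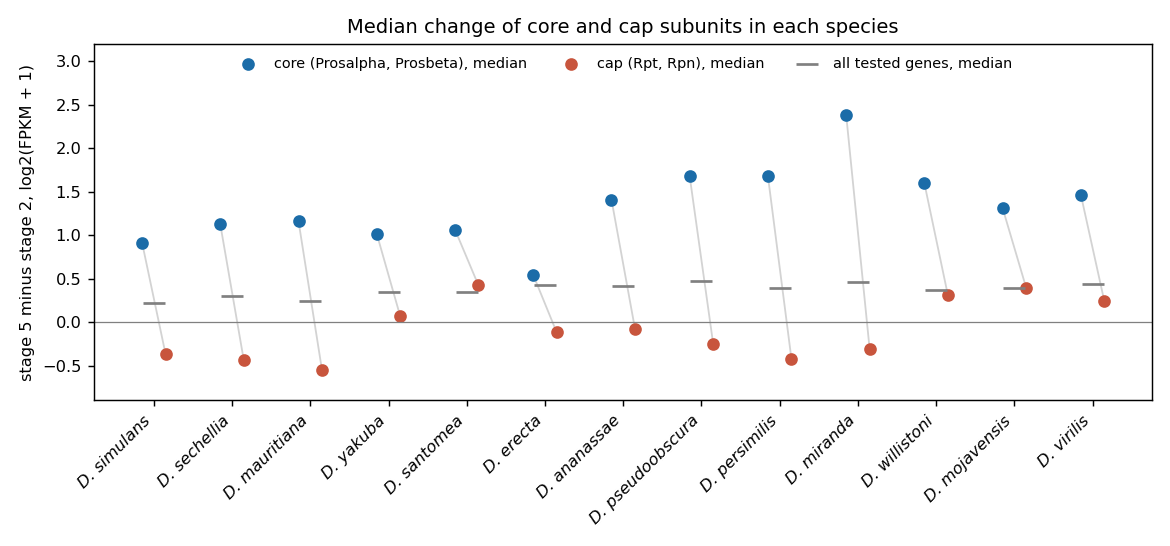
Median stage 5 minus stage 2 change on the log2(FPKM + 1) scale of core subunits (blue), cap subunits (red) and all tested genes (grey bar) in each of 13 species. The blue point lies above the red in all 13 species, with a gap between 0.64 in D. santomea and 2.69 in D. miranda. The height of the points against 0 is that of the deposited scale. With quantile normalization the median over core subunits of their mean changes falls below 0.

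Of the 47 genes, 30 had both stages in at least 10 species and a mean of at least 1 FPKM and were tested: 13 core, 16 cap and 1 copy. As deposited, 12 were called higher and 0 lower by limma, where 30.9% of all tested genes were called higher and 16.5% lower. With each species centred on the median of all genes, 5 of the 30 were called higher and 2 lower, where 22.1% and 22.9% of all tested genes were. At an unadjusted p under 0.05 and with no minimum size, 16 were higher and 2 lower. The share of all genes at that unadjusted p was not counted, so these numbers cannot be set against all genes. At an adjusted p under 0.05 and with no minimum size, 12 of 13 core subunits, 2 of 16 cap subunits and the copy Rpt3R were higher. At that cut 2 cap subunits were lower, and of all 7225 tested genes 3052 were higher and 1543 lower. The core held 10 of the 12 calls as deposited and all 5 after centring. With quantile normalization or equal column totals no member was called higher, and 12 and 14 were called lower. Of these, 11 and 13 were cap subunits. Of all tested genes, 1514 of 7225 were called lower with quantile normalization and 2992 of 7150 at equal column totals, while 1280 and 612 were called higher. With phylogenetic least squares, which allows for shared ancestry, 6 calls were kept: Prosalpha6, Prosbeta1, Prosbeta2, Prosbeta4, Prosbeta5 and Prosbeta7. That setting called 875 of all 7225 tested genes higher and 139 lower.

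The beta ring moved most evenly. As deposited, 7 of 7 beta subunits were called higher at stage 5, and 4 of the 7 (Prosbeta1, Prosbeta4, Prosbeta5 and Prosbeta7) after centring. Prosbeta7, a structural subunit of the ring, had a lowest, median and highest level over species of 627 (D. simulans), 820 and 1189 FPKM (D. yakuba) at stage 5, against 157 (D. pseudoobscura), 199 and 396 FPKM (D. yakuba) at stage 2. The stages did not overlap, and the change was at least 2-fold in 13 of 13 species. Its mean change was 1.94 ± 0.31 (SD, n = 13 species, adjusted p = 2.97e-11 by limma), and it was the member with the highest median level at stage 5.

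Prosbeta5, which carries the chymotrypsin-like site, had 530 (D. mojavensis), 670 and 937 FPKM (D. mauritiana) at stage 5, against 140 (D. virilis), 254 and 320 FPKM (D. yakuba) at stage 2. Here too the stages did not overlap, and 11 of 11 species showed at least a 2-fold increase, with a mean of 1.63 ± 0.32 (SD, adjusted p = 5.96e-09 by limma). Prosbeta1, the caspase-like subunit, had 172 (D. mauritiana), 375 and 1014 FPKM (D. miranda) at stage 5, against 75.7 (D. mauritiana), 158 and 239 FPKM (D. willistoni) at stage 2. Its levels overlapped between stages, but it was higher at stage 5 in 13 of 13, by 1.43 ± 0.52. Prosbeta2, the trypsin-like subunit, had 351 (D. erecta), 535 and 1262 FPKM (D. persimilis) at stage 5, against 174 (D. mojavensis), 260 and 332 FPKM (D. willistoni) at stage 2. The stages of this catalytic subunit did not overlap either, and it was higher in 13 of 13 species by 1.34 ± 0.49.

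The remaining beta subunits are structural. Prosbeta4 had 457 (D. miranda), 703 and 1030 FPKM (D. santomea) at stage 5, against 107 (D. miranda), 304 and 459 FPKM (D. mauritiana) at stage 2, the highest stage 2 median of any member. It changed by 1.43 ± 0.41, upward in 13 of 13 species, and its spread over species was smaller at stage 5 than at stage 2. Prosbeta6 changed by 1.31 ± 0.50, upward in 13 of 13 species, with its least change in D. erecta (0.23) and its greatest in D. mojavensis (2.14). Prosbeta3 showed the smallest beta ring change, 1.04 ± 0.45, upward in 12 of 12 species. Its least change, 0.24, was that of D. miranda, from the values near 0 given above, which are part of this mean. The mean fell to 0.98 without D. pseudoobscura, and also to 0.98 without D. persimilis, which is under the minimum size for a call. On the deposited scale all 7 beta subunits were higher. With quantile normalization, however, Prosbeta2, Prosbeta3, Prosbeta4 and Prosbeta6 lay between -0.32 and -0.09. At equal column totals Prosbeta3 and Prosbeta6 lay at -0.18 and -0.02, and none of these values was called. Prosbeta1, Prosbeta5 and Prosbeta7 stayed above 0 but lost their calls under both scalings. They lay at 0.02, 0.18 and 0.40 with quantile normalization and at 0.10, 0.34 and 0.61 at equal column totals.

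The alpha ring was less even. Of its 7 genes 6 were tested, 3 were called higher as deposited and 1, Prosalpha6, after centring. Prosalpha6 had 142 (D. mojavensis), 668 and 1203 FPKM (D. willistoni) at stage 5, against 56.6 (D. mojavensis), 269 and 336 FPKM (D. mauritiana) at stage 2. D. mojavensis was low at both stages, so the levels overlapped, yet the change was positive in 11 of 11 species, by 1.36 ± 0.40 (SD, adjusted p = 2.77e-07 by limma), and with quantile normalization it was -0.05. Prosalpha5 changed by 1.20 ± 0.67, higher in 12 of 13 species; the exception was D. virilis, at -0.53. Prosalpha2 changed by 1.12 ± 0.90, with 222 (D. erecta), 605 and 1257 FPKM (D. miranda) at stage 5 against 172 (D. mojavensis), 277 and 434 FPKM (D. santomea) at stage 2. It was lower at stage 5 in D. erecta and D. yakuba and about level in D. santomea (438 FPKM at stage 5, 434 FPKM at stage 2); its change was 0.73 among species not mixed with D. melanogaster and 0.97 without D. pseudoobscura and D. miranda, and was called in neither. With quantile normalization or equal column totals both Prosalpha5 and Prosalpha2 lay between -0.39 and -0.13, uncalled.

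The other 3 tested alpha subunits were not called. Prosalpha7 changed by 0.78 ± 0.79 (adjusted p = 0.00418 by limma, under the minimum size) and Prosalpha3 by 0.74 ± 0.96 (adjusted p = 0.014 by limma). Prosalpha4 changed by 0.16 ± 1.26 and split evenly, with 5 of 10 species higher at stage 5 and 5 lower. It had 53.3 FPKM at stage 5 against 243 FPKM at stage 2 in D. erecta and 77.4 against 146 FPKM in D. virilis, but 429 against 139.5 FPKM in D. pseudoobscura and 604 against 208 FPKM in D. persimilis. With quantile normalization or at equal column totals all 3 of these changes were below 0. Prosalpha4 also had the lowest stage 5 median of the tested core subunits, at 295 FPKM.

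None of the 4 Rpt ATPases tested was called as deposited, and their median change was -0.41. Rpt3 had 36.1 (D. ananassae), 58.2 and 269 FPKM (D. virilis) at stage 5, the lowest stage 5 median of any broad subunit, against 109 (D. ananassae), 121 and 264 FPKM (D. santomea) at stage 2. It was lower at stage 5 in 9 of 12 species, by -0.73 ± 0.94, and centred on all genes it was called lower at -1.11 (adjusted p = 0.00109 by limma). Rpt6 had a median of 77.0 FPKM at stage 5 and 169 FPKM at stage 2, with a mean change of -0.56 ± 1.22. Rpt6 was lower in 9 of 13 species, but D. willistoni had 1302 FPKM at stage 5, the highest cap value in any species, against 278 FPKM at stage 2, and D. santomea had 499 against 212 FPKM. Rpt5 (-0.26 ± 0.57) was lower in 11 of 13 species and Rpt2 (0.10 ± 0.71) higher in 7 of 12. With quantile normalization or at equal column totals Rpt2, Rpt3, Rpt5 and Rpt6 were each called lower, between -2.07 and -1.08. Rpt1 had values at both stages in 3 species and Rpt4 in 9, so neither was tested; Rpt4 had a median of 149 FPKM at stage 5 and 133 FPKM at stage 2, and Rpt1 had 149, 100.2 and 97.5 FPKM at stage 5 against 89.9, 114 and 140.4 FPKM at stage 2 in D. mauritiana, D. pseudoobscura and D. miranda.

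Among the 12 Rpn subunits, all tested, 1 was called higher as deposited and, after centring, none was called higher and 1 lower. Rpn6, a lid subunit that contacts the core, was the one that moved with the core. It had 184 (D. willistoni), 401 and 804 FPKM (D. miranda) at stage 5, the highest stage 5 median of the cap, against 126 (D. mojavensis), 159 and 229 FPKM (D. mauritiana) at stage 2. Rpn6 was higher in 13 of 13 species, by 1.30 ± 0.66 (SD, adjusted p = 5.78e-06 by limma), although by only 0.08 in D. willistoni; it was -0.13 with quantile normalization, -0.03 at equal column totals and 0.80, not called, among species not mixed with D. melanogaster. The lid subunits Rpn12 (0.68 ± 0.72, higher in 10 of 12 species) and Rpn7 (0.37 ± 0.77) followed, neither of them called, and both were below 0 with quantile normalization or at equal column totals. Rpn3, another lid subunit, had 37.3 (D. mauritiana), 73.7 and 119 FPKM (D. virilis) at stage 5, against 69.5 (D. mauritiana), 124 and 163 FPKM (D. yakuba) at stage 2. It was lower in 10 of 12 species, by -0.67 ± 0.47 (adjusted p = 0.00116 by limma), which missed the minimum size as deposited and passed it after centring, at -1.05. Rpn3 was also called lower with quantile normalization (-1.62) and at equal column totals (-2.01).

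Rpn11, the subunit that removes ubiquitin from substrates, changed by -0.58 ± 1.10, and Rpn10, a ubiquitin receptor, by -0.41 ± 0.98, neither called as deposited. Both were called lower with quantile normalization (-1.58 for Rpn11, -1.47 for Rpn10) and at equal column totals (-1.90 for Rpn11, -1.74 for Rpn10). Rpn11 was lowest at stage 5 in D. persimilis, with 29.3 FPKM against 170.5 FPKM at stage 2, and highest in D. virilis, with 444 against 188 FPKM. Rpn10 was lower at stage 5 in 9 of 10 species, the exception being D. mojavensis with 477 against 105 FPKM. Rpn13, a further ubiquitin receptor, had the lowest stage 2 median of the cap at 96.7 FPKM, and changed by -0.08 ± 0.71 as deposited. Rpn13 was called lower with quantile normalization (-1.06) and at equal column totals (-1.41). The 2 large scaffold subunits were the steadiest as deposited: Rpn1 changed by 0.30 ± 0.43 and Rpn2 by 0.01 ± 0.34, with no species past 2-fold in either direction. Both were below 0 with quantile normalization, uncalled. At equal column totals both were called lower, at -1.02 for Rpn1 and -1.29 for Rpn2. As deposited, Rpn5 (0.10 ± 1.14), Rpn8 (-0.29 ± 1.32) and Rpn9 (-0.05 ± 0.88) had mean changes near 0 that cover opposite moves. With quantile normalization or at equal column totals each of them was called lower, between -1.61 and -1.13. Rpn5 had 768 FPKM at stage 5 in D. santomea against 201 FPKM at stage 2 and 717 against 196 FPKM in D. yakuba, but 54.4 against 143 FPKM in D. erecta, a close relative of both. The D. santomea columns carry gene identifiers of D. yakuba. Rpn8 had 499.7 against 109 FPKM in D. mojavensis and 437 against 88.1 FPKM in D. miranda, while D. mauritiana had 33.9 against 120 FPKM.

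**Figure D2:**
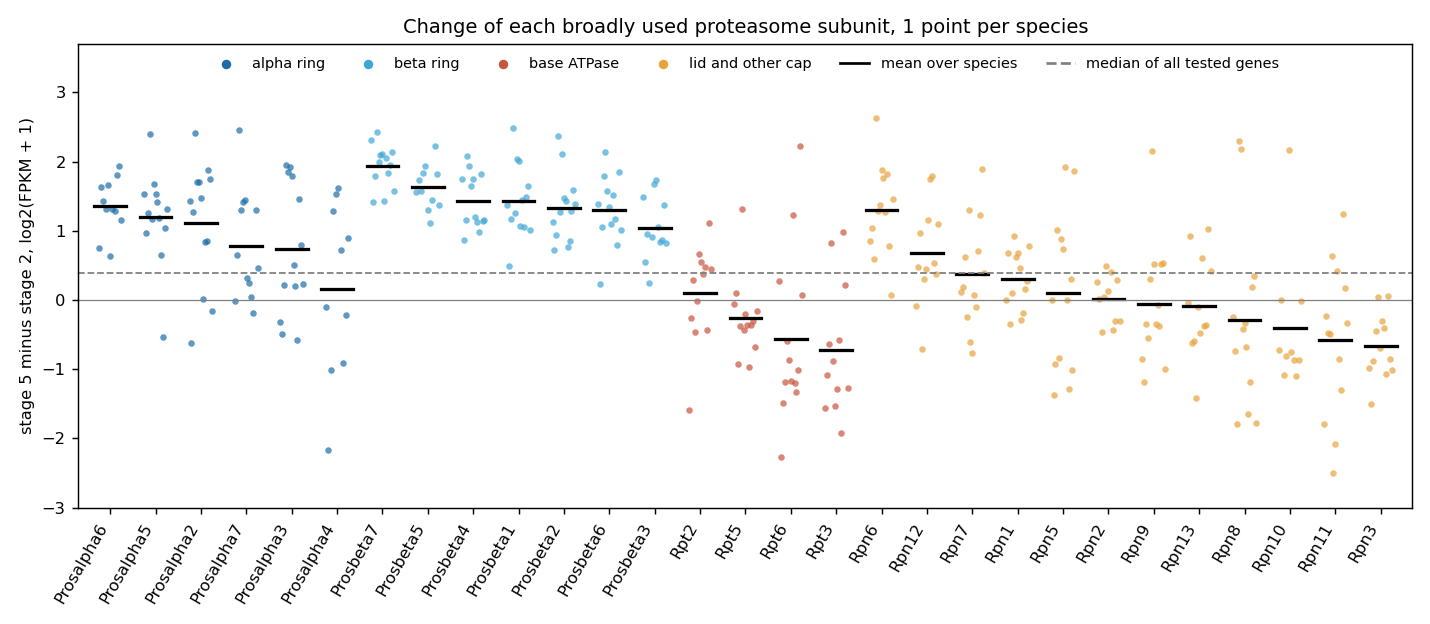
Stage 5 minus stage 2 change of each tested broad subunit on the log2(FPKM + 1) scale, 1 point per species, with the mean over species as a black bar and the median of all tested genes as a dashed line at 0.39. The beta ring points lie between 0.23 and 2.49, with Prosbeta7 at a mean of 1.94, whereas the Rpt and Rpn means lie between -0.73 and 0.68 apart from Rpn6 at 1.30; these heights are those of the deposited scale, and after quantile normalization every mean shown is below 0 except those of Prosbeta1, Prosbeta5 and Prosbeta7.

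Levels before zygotic transcription were close together. Over the 13 species, the core median at stage 2 ran from 145 FPKM in D. miranda to 314 FPKM in D. yakuba, and the cap median from 95.0 FPKM in D. miranda to 182 FPKM in D. yakuba. FPKM is a per length measure, so the classes can be set against each other: the core median was 1.25 (D. virilis) to 2.05 (D. mauritiana) times the cap median at stage 2, with a median ratio of 1.61. At stage 5 the same ratio was 2.23 in D. santomea, 4.75 at the median and 9.48 in D. miranda, so that the 2 stages did not overlap. The stage 5 medians rest on 10 core and 15 cap subunits in D. miranda and on 13 and 16 in D. santomea. D. melanogaster, with a core median of 205 FPKM and a cap median of 126 FPKM at stage 2, had a ratio of 1.63. The stage 5 core median was 351 FPKM in D. erecta, 588 FPKM at the median and 753 FPKM in D. willistoni, while the cap median was 70.3 FPKM in D. miranda, 113 FPKM at the median and 196 FPKM in D. santomea.

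**Figure D3:**
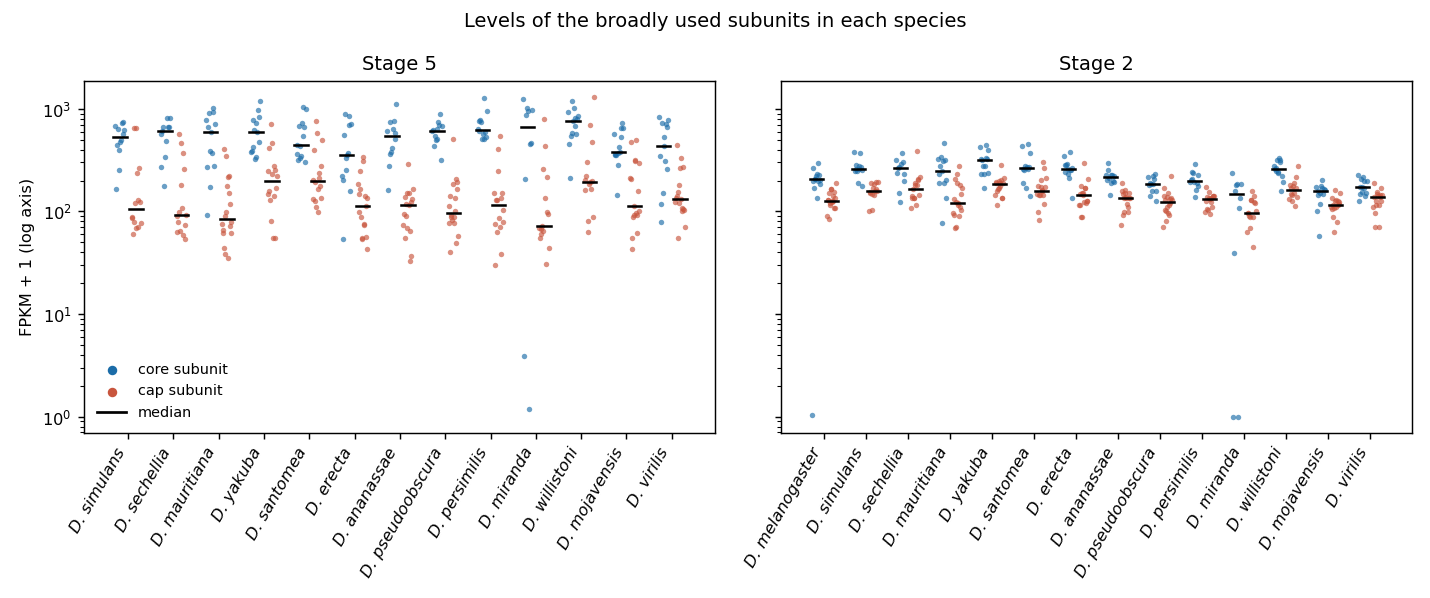
Level of each broad subunit as FPKM + 1 on a log axis at stage 5 (left) and stage 2 (right), core in blue and cap in red, with the median as a black bar. The core median lies 2.23 to 9.48 times above the cap median at stage 5 and 1.25 to 2.05 times above it at stage 2; the low core points are Prosalpha3 and Prosbeta3 of D. miranda and Prosalpha1 of D. melanogaster.

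Species differed more in the level of a cap subunit at stage 5 than at stage 2. With each column centred on its median over the tested genes, the SD of a cap subunit's level over species had a median of 0.91 at stage 5 and 0.37 at stage 2 (log2 units), and 15 of 16 cap subunits were more spread at stage 5. The core had medians of 0.73 at stage 5 and 0.47 at stage 2, with 9 of 13 more spread at stage 5. All tested genes had medians of 1.03 at stage 5 and 0.60 at stage 2, and 80.9% of them were more spread at stage 5. The widening of the cap, with a median SD ratio of 2.37, compares with 1.19 for the core and 1.51 for all tested genes; these are descriptions with no test. Rpn5 went furthest, with an SD of 1.18 at stage 5 and 0.22 at stage 2, followed by Rpt6 with 1.38 at stage 5 and 0.36 at stage 2. The 4 core subunits with a smaller SD at stage 5 were Prosbeta4, Prosbeta5, Prosbeta7 and Prosalpha3. The SD of Prosalpha3 and Prosbeta3 lay between 1.80 and 2.48 with their D. miranda values included: without that species, an alternative chosen after seeing the data, those of Prosalpha3 were 0.64 at stage 5 and 0.53 at stage 2.

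**Figure D4:**
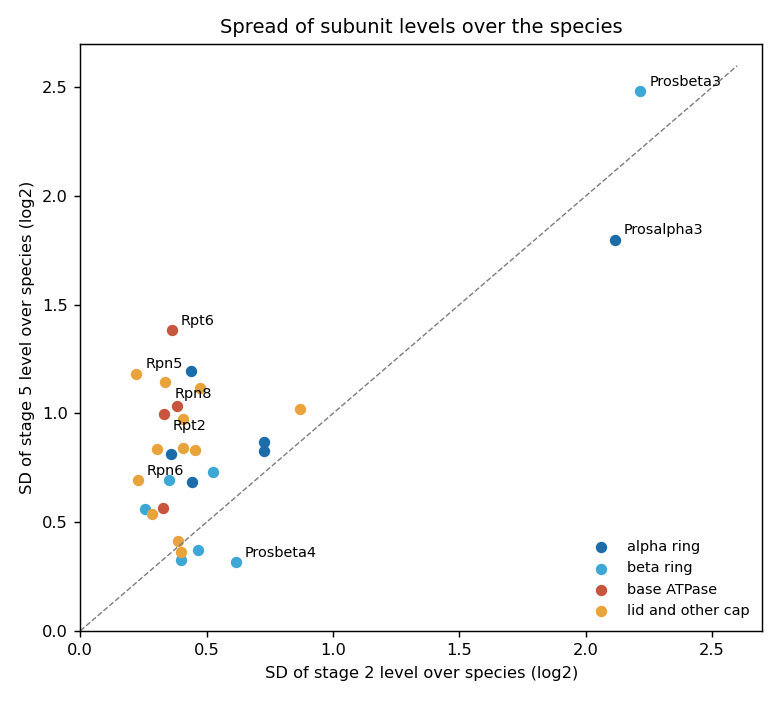
Spread of each broad subunit over species, as the SD of its log2(FPKM + 1) level after centring each column, at stage 5 (vertical) and stage 2 (horizontal), with the line of equal spread dashed. Of the 16 cap subunits 15 lie above the line; Prosalpha3 and Prosbeta3, at the far right with an SD of 1.80 to 2.48, have values near 0 in D. miranda.

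Some pairs of closely related species departed from the average in the same subunits, and other close pairs did not. For each subunit the mean change over species was subtracted, and the remainders of 2 species were correlated over subunits; the points share that subtracted mean, and species of a pair can share an annotation. Over the core, D. yakuba and D. santomea had the highest Pearson r of 78 pairs, 0.88 over 13 genes, D. pseudoobscura and D. persimilis 0.86 over 11, and D. simulans and D. sechellia 0.58 over 11, where the median pair had -0.06. Over the cap, D. pseudoobscura and D. persimilis had the highest, 0.79 over 15 genes, D. yakuba and D. santomea 0.78 over 15, and D. simulans and D. sechellia 0.64 over 13, where the median pair had -0.12. Some other close relatives had lower values: D. pseudoobscura and D. miranda had 0.07 over the core and 0.24 over the cap, D. persimilis and D. miranda 0.28 and -0.07, D. yakuba and D. erecta -0.03 and -0.07, and D. santomea and D. erecta -0.19 and -0.38. Some pairs from different clades reached the core value of D. simulans and D. sechellia. D. mauritiana and D. willistoni had 0.61 over 13 core genes, and D. simulans and D. ananassae 0.59 over 11. Over the cap, the highest pair from different clades was D. mauritiana and D. virilis, with 0.34 over 16 genes. Relatedness was not tested against these correlations. Prosalpha4 and Rpn11 in D. pseudoobscura and D. persimilis, and Rpn5 in D. yakuba and D. santomea, are examples given above.

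The 3 obscura group species were then compared with the melanogaster subgroup, with 24 members tested. In the stage change, 5 of 24 differed by limma, all of them larger in the obscura group, where 24.1% of all tested genes were called. They were Prosalpha3 (difference 1.87, adjusted p = 0.000948 by limma), Rpn8 (1.82, adjusted p = 0.0353), Prosalpha2 (1.50, adjusted p = 0.0200), Prosalpha7 (1.49, adjusted p = 0.00252) and Prosbeta1 (1.13, adjusted p = 0.00483). Prosalpha7 changed by 1.77 ± 0.59 in the obscura group and by 0.28 ± 0.25 in the melanogaster subgroup (SD over 3 and 6 species), with a range of 1.42 to 2.45 in the obscura group and of -0.02 to 0.65 in the melanogaster subgroup. Prosalpha3 changed by 1.79, 1.92 and 1.95 in D. pseudoobscura, D. persimilis and D. miranda, the D. miranda value being that of the low levels given above, against -0.58 to 0.50 in the melanogaster subgroup. Rpn8 changed by 2.30 in D. miranda, -0.33 in D. pseudoobscura and -0.42 in D. persimilis, against -1.79 to -0.68 in the melanogaster subgroup. Without D. miranda its difference was 0.93 and was not called; the call was also lost without D. simulans, D. sechellia, D. mauritiana or D. yakuba (1.72 to 1.84). Without D. miranda the differences of Prosalpha2 (1.23) and Prosbeta1 (0.98) were not called either, and that of Prosalpha2 (1.58) was not called without D. persimilis. With quantile normalization Prosbeta1 (0.55), Prosalpha7 (0.97) and Prosalpha2 (1.06) were not called. D. pseudoobscura and D. miranda are also the re-analysed libraries labelled total RNA, so clade and library source cannot be told apart for them. D. persimilis is labelled polyA RNA and, at both stages, mixed with D. melanogaster. It had 1.92 for Prosalpha3, 1.71 for Prosalpha2, 1.42 for Prosalpha7, 2.03 for Prosbeta1 and -0.42 for Rpn8. The part of library source or mixing in these differences was not tested.

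Levels at each stage, centred on the median of all genes in a column, differed between these clades in fewer members. At stage 2, 2 of 24 were called by limma, both lower in the obscura group, where 13% of all tested genes were called: Rpn9 (difference -1.39, adjusted p = 0.00857) and Prosbeta4 (-1.13, adjusted p = 0.00366). Rpn9 had 91.9, 122 and 44.0 FPKM in D. pseudoobscura, D. persimilis and D. miranda at stage 2, below the 141 to 390 FPKM of the melanogaster subgroup with D. melanogaster included. Without D. miranda, Prosbeta4 (-0.92) was not called at stage 2. At stage 5, 2 of 24 were called, both higher in the obscura group, where 21% of all tested genes were called: Prosbeta1 (1.32, adjusted p = 0.0226) and Prosalpha7 (1.23, adjusted p = 0.0257). Neither was called without D. miranda (0.99 for Prosbeta1, 0.90 for Prosalpha7) or without D. pseudoobscura (1.37 for Prosbeta1, 1.34 for Prosalpha7), and neither was called with quantile normalization (1.05 for Prosbeta1, 0.96 for Prosalpha7). Without the species labelled as mixed with D. melanogaster, none of these stage 2 and stage 5 level differences was called. Their sizes were then -1.44 for Rpn9, -1.13 for Prosbeta4, 1.81 for Prosbeta1 and 1.29 for Prosalpha7. The obscura group in that setting was D. pseudoobscura and D. miranda, whose mixing is not stated and which are both labelled total RNA. Clade and library source therefore cannot be told apart there.

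The 15 T and R copies were at or near 0 in these embryos. Over the 13 species they had 146 values at each stage; 67 at stage 5 and 109 at stage 2 were listed at 0 (values under 1e-06 counted as 0), and 18 at stage 5 and 4 at stage 2 reached 1 FPKM. In the same table, between 54.8% and 64.5% of all genes reached 1 FPKM at stage 5 and between 51.0% and 57.2% at stage 2. The median difference of a copy minus its broad counterpart was -8.20 ± 0.63 at stage 5 and -7.64 ± 0.45 at stage 2 on the log2(FPKM + 1) scale (SD over 13 species). Copies with a core role reached 1 FPKM only in Prosbeta2R2, which had 1.22 to 1.81 FPKM at stage 5 in 4 species and, in D. virilis, 1.81 FPKM at stage 5 against 11.0 FPKM at stage 2. Prosbeta4R1, Prosbeta4R2 and Prosbeta5R2 were listed at 0 in every species at both stages. Prosalpha6T, needed for male fertility in D. melanogaster, reached at most 0.225 FPKM at stage 5, in D. erecta, and was listed at 0 at stage 2 in 11 of 11 species. The highest values of the rest were 0.420 FPKM for Prosalpha4T1, 0.469 FPKM for Prosalpha4T2 at stage 2, 0.351 FPKM for Prosbeta2R1, 0.0691 FPKM for Prosalpha3T, 0.00786 FPKM for Prosbeta5R1, 0.466 FPKM for Rpn12R and 0.550 FPKM for Rpn13R.

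The ATPase copies stood somewhat higher. Rpt3R, a relative of Rpt3, was the 1 copy tested; it had a median of 1.73 FPKM at stage 5 and 0.196 FPKM at stage 2 and was higher at stage 5 in 12 of 13 species, by 1.12 ± 0.97 (adjusted p = 0.00141 by limma). The call was lost among species not mixed with D. melanogaster (0.73) and among mixed ones (1.33), and without D. sechellia, where Rpt3R had 11.5 FPKM at stage 5 against 0.303 FPKM at stage 2 (mean change 0.94 without it). Rpt3R was also not called after centring (0.75), with quantile normalization (0.48) or at equal column totals (0.64). Nor was it called with 1 mean per clade (0.99), with phylogenetic least squares (0.91) or with pseudocount 10 (0.26). D. erecta stood apart from every other species, with 48.4 FPKM of Rpt3R at stage 5 and 37.3 FPKM at stage 2, which is 87.6% of its Rpt3 level at stage 5 and 31.5% at stage 2. Rpt6R reached 1 FPKM at stage 5 in 5 of 11 species, at most 4.49 FPKM in D. sechellia, and Rpt4R reached 12.5 FPKM at stage 5 in D. virilis, which is 12.0% of its Rpt4 level. Over all copies and species, 75 pairs were higher at stage 5, 10 lower and 61 at 0 in both, on the deposited scale. The mean change was above 0 in 4489 of all 7225 tested genes. That is a count of genes by their mean over species, after the filter on level, and so is not a like measure. The share over all pairs of a gene and a species was not counted. Most copy values were under 1 FPKM and the depth is unknown, so the directions of these pairs are uncertain. Markers of the testis were read beside them: of 12 with values, the median over species was at 0 for 4 at stage 5 and for 7 at stage 2, and their summed level ran from 1.07 to 203 FPKM at stage 5 and from 14.1 to 90.4 FPKM at stage 2. Their part in the copies' values was not tested. Of this list bam and gdl were tested, and both were called lower at stage 5. Their stage 2 medians, before zygotic transcription, were 25.2 FPKM for bam and 14.6 FPKM for gdl. The highest bam value at stage 5 was 197 FPKM, near the highest summed level, so the sums do not stand for the list as a whole. Whether these genes report testis expression in embryos was not tested.

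**Figure D5:**
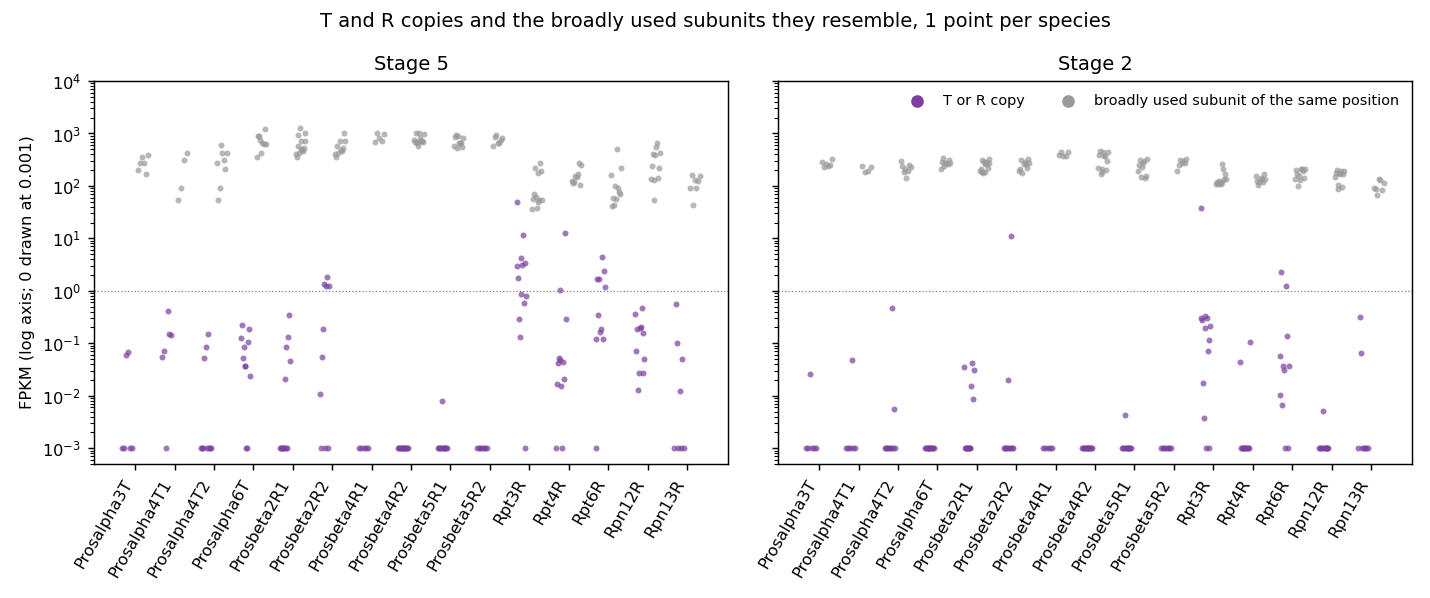
Level in FPKM on a log axis of each T or R copy (purple) and of the broad subunit of the same position (grey) at stage 5 (left) and stage 2 (right), 1 point per species, with values of 0 drawn at 0.001. At stage 5, 18 of 146 copy values reach the dotted line at 1 FPKM, and 4 of 146 do at stage 2; the highest is Rpt3R of D. erecta, at 48.4 FPKM at stage 5 and 37.3 FPKM at stage 2.

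Genes that work with the proteasome did not move as a block. Of 16 regulators and assembly factors 15 were tested, 3 were called higher and 3 lower, with a median change of 0.33, where 30.9% of all tested genes were called higher and 16.5% lower; after centring 2 were higher and 3 lower. Pomp, the chaperone that matures the beta ring, changed by 1.70 ± 0.54 (adjusted p = 2.92e-08 by limma), higher in 13 of 13 species, and by 1.33 after centring. Ubqn, a shuttle that delivers ubiquitinated proteins, changed by 1.40 ± 0.44 as deposited and 1.03 after centring, and PI31, a proteasome-binding adaptor, by 1.13 ± 1.08 as deposited, 0.76 (not called) after centring and -0.18 at equal column totals. Pomp and Ubqn were not called with quantile normalization (0.29 for Pomp, 0.26 for Ubqn) or at equal column totals (0.37 for Pomp, 0.083 for Ubqn), and PI31 was called in neither. Npl4, a cofactor of the segregase TER94, was lower by -1.59 ± 1.00 in 13 of 13 species. The transcription factor gene cnc, whose protein drives proteasome genes in stressed flies, had a median of 13.9 FPKM at stage 5 against 41.5 FPKM at stage 2, a change of -1.21 ± 0.79; it was not called among species not mixed with D. melanogaster (-0.94) or with phylogenetic least squares. The change of ntc, which encodes an F-box protein that binds PI31, was -1.10 ± 1.40; that call was lost when any of D. sechellia, D. pseudoobscura, D. persimilis or D. miranda was left out (-0.83 to -0.999), with 1 mean per clade, and with phylogenetic least squares. Among species not mixed with D. melanogaster the change of ntc was -0.044 (adjusted p = 0.937 by limma). After centring, Npl4, cnc and ntc were called lower, at -1.96, -1.59 and -1.48.

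Of 12 listed ubiquitin, E1 and E2 genes 9 were tested, 4 were called higher and 0 lower as deposited and 3 and 0 after centring, with a median of 0.69. Of all tested genes, 30.9% were called higher and 16.5% lower as deposited, and 22.1% and 22.9% after centring. The 4 genes called as deposited were the ubiquitin fusion genes RpL40 (1.95 ± 0.51) and RpS27A (1.76 ± 0.61) and the conjugating enzymes ben (1.88 ± 0.33) and eff (1.12 ± 0.51). With quantile normalization RpL40, RpS27A and eff lay between -0.40 and -0.16, and eff lay at -0.18 at equal column totals. None of the 4 was called higher under either scaling. The COP9 signalosome, a complex built from the same families of scaffold as the lid, had all 7 of its tested subunits called higher as deposited and 5 after centring, with a median change of 1.69, where the lid and other Rpn subunits had a median of -0.02. With quantile normalization CSN3, CSN4, CSN5, CSN6 and CSN7 were not called (0.59 to 0.90), and at equal column totals none of the 7 was (0.021 for CSN3 to 0.89 for CSN8). Its alien subunit had a median of 265 FPKM at stage 5 against 58.8 FPKM at stage 2 and changed by 2.20 ± 0.28, and CSN5, its deubiquitinase-like enzyme and a relative of Rpn11, by 1.69 ± 0.54. For the chaperonin CCT, another large complex stocked by the mother, 4 of 14 listed symbols were found and tested. As deposited 0 were called higher and 2 lower: Tcp-1eta (-2.76 ± 0.73) and Tcp-1zeta (-2.07 ± 1.16). After centring 0 were called higher and 3 lower, with T-cp1 added at -1.10.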

How the data were processed

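The deposited FPKM values are the authors': the submitters' processing notes name Cuffdiff, Cuffnorm, Cufflinks, TopHat2 and cutadapt, with versions and builds not given in the sources used here. The unit was inferred from those tools and the values. Columns of the wider table sit 1 place left of their names and were read so; the 3764 genes shared with the second table, of genes with an ortholog in all 14 species, hold the same values there. Left out were 2 columns, D. melanogaster stage 5 in each table, which match no sample used here. Depth is unknown, so no counting intervals are given.

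For each species, stage 5 minus stage 2 of log2(FPKM + 1) was computed (pseudocount 1, which understates changes near 0). Genes with both stages in at least 10 species and a mean of at least 1 FPKM were fitted with limma 3.58.1 in R 4.3.3 (eBayes with trend on mean level, two-sided, Benjamini-Hochberg over all 7225 genes). Calls need an adjusted p below 0.05 together with a mean change of 1 or more in size. The clade fits used genes with values in all 3 obscura species and at least 4 of the melanogaster subgroup. The stage fit was tested on simulated data with known changes. P-values measure the spread between species. Species share ancestry, so p-values are too small where a tree term matters; phylogenetic least squares (ape 5.8.1) was an alternative. Genes named are all called members, the 3 highest and 3 lowest mean changes of each class, extremes of level, all copies with values, and up to 4 called genes in each direction of the other lists; the rest of the members are named to account for all. Alternatives changed the pseudocount, filters, scaling, species set and tree. In the stage fit, the species not mixed with D. melanogaster were D. ananassae, D. erecta, D. mauritiana, D. willistoni and D. yakuba. The clade fits without mixed species kept D. pseudoobscura and D. miranda, whose mixing is not stated. Members and lists were chosen with earlier results of these data known. All 47 symbols match current gene symbols. Promoter sequence was not used here.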

Additional observations from a re-analysis of the deposited data

Results flagged for a closer look

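Differences between clades in the stage change were found for 5 subunits, of 24 tested, by limma's test of the obscura group minus the melanogaster subgroup; 24.1% of all tested genes were called, so the share of members is near that of any gene. The differences on the log2(FPKM + 1) scale were 1.87 for Prosalpha3, 1.82 for Rpn8, 1.50 for Prosalpha2, 1.49 for Prosalpha7 and 1.13 for Prosbeta1. Within the obscura group Rpn8 was high in D. miranda alone, and Prosalpha3 includes D. miranda values near 0. Only Prosalpha3 kept its call without the species mixed with D. melanogaster, where the obscura group was D. pseudoobscura and D. miranda. No member named in these comparisons had a species standing apart within the melanogaster subgroup by Dixon's criterion, which flags about 1 group in 20 by chance.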

How the results depend on the processing

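The gap between core and cap kept its direction under every alternative run, from 1.01 with quantile normalization to 1.52 with 1 species left out (1.29 to 1.52 over the species left out). Single directions depended on scaling. Of all tested genes, those called higher numbered 2232 of 7225 as deposited, 1599 after centring and 1280 with quantile normalization. They numbered 612 of 7150 at equal column totals and 875 of 7225 with phylogenetic least squares. Those called lower numbered 1189, 1651, 1514, 2992 and 139 in the same order of settings. Members called higher numbered 12 as deposited, 5 after centring, 0 with quantile normalization, 0 at equal column totals and 6 with phylogenetic least squares, and 11 to 12 with 1 species left out. Members called lower numbered 0 as deposited, 2 after centring, 12 with quantile normalization, 14 at equal totals, 1 among unmixed species, 1 among mixed species and 2 with no minimum size, and 0 with 1 species left out. Core subunits called higher numbered 10, then 5, 0, 0 and 6 in the same order of settings (9 to 10 with 1 species left out), and 1 was lower with quantile normalization and 1 at equal totals. Cap subunits called higher numbered 1, 0 in those 4 settings, 0 among unmixed species and 2 with no minimum size (1 with 1 species left out); cap subunits called lower numbered 2 after centring, 11 with quantile normalization, 13 at equal totals, 1 among unmixed species, 1 among mixed species and 2 with no minimum size.

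Changes that turned below 0 with quantile normalization were Prosalpha2 (-0.39), Prosalpha4 (-1.15), Prosalpha5 (-0.26), Prosalpha6 (-0.053), Prosbeta2 (-0.20), Prosbeta3 (-0.32), Prosbeta4 (-0.087), Prosbeta6 (-0.094), Rpt2 (-1.08), Rpn5 (-1.13), Rpn6 (-0.13), RpL40 (-0.16), RpS27A (-0.40) and eff (-0.35). At equal column totals they were Prosalpha2 (-0.21), Prosalpha4 (-1.18), Prosalpha5 (-0.13), Prosbeta3 (-0.18), Prosbeta6 (-0.018), Rpt2 (-1.20), Rpn1 (-1.02), Rpn2 (-1.29), Rpn5 (-1.22), Rpn6 (-0.030), PI31 (-0.18) and eff (-0.18). Prosalpha3, Prosalpha7, Rpn7 and Rpn12, and with quantile normalization Rpn1 and Rpn2, also turned below 0 without being called in either setting. These scalings move the median of all genes from 0.39 to 0.05 and -0.70.

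Genes of the other lists called numbered 19, 11 in the table of all 14 species, which holds fewer genes, 10 with phylogenetic least squares, and 17 to 19 with 1 species left out. It was 16 with quantile normalization and 15 at equal totals, but of partly different genes: Pomp, Ubqn, PI31, RpL40, RpS27A, ben and eff lost their calls under both, as did CSN3 to CSN7, and alien and CSN8 lost theirs at equal totals. Copies minus broad subunits came to -10.87 at stage 5 and -10.88 at stage 2 with pseudocount 0.1, and to -5.17 and -4.40 with pseudocount 10; at stage 2 they came to -8.30 with quantile normalization and -8.30 at equal totals. With 1 species left out they ran from -8.28 to -8.11 at stage 5 and from -7.70 to -7.60 at stage 2. Clade calls without mixed species numbered 1 for the stage change, 0 for the stage 2 level and 0 for the stage 5 level, which also had 0 with quantile normalization; with 1 species left out they ran from 4 to 6, from 1 to 2 and from 1 to 3. The causes were not tested. No paired analysis was possible because each column pools the embryos of a group, so embryos could not be matched by replicate number; the stages themselves were matched within each species in every stage fit. Depth is unknown and limits values near 0.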
